A study of Mus musculus with 85 samples.

Results

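The response of bone-marrow-derived macrophages (BMDMs) to a bacterial lipid was measured separately for the BALB/cJ and the C57BL/6J allele of each gene in CB6F1/J mice, the first-generation hybrid of both strains. A gene was included when it lies on an autosome and had a mean of at least 10 reads per library that span a variant between the strains. These were 5397 of the 23608 genes in the tables, and 188 of them had a mean under 15 reads. The quantity of interest was the allele by KLA interaction: the log2 ratio of BALB/cJ to C57BL/6J reads in cells given KLA, minus the same ratio in cells given PBS. A positive value means that the BALB/cJ share of the reads was higher with KLA, and a negative value that it was lower.

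BMDMs were grown from marrow of the femur, tibia and iliac bones in medium with M-CSF and L929-conditioned medium. They received PBS (2 libraries) or KLA (2 libraries) at 100 ng/ml for 2 h. KLA is Kdo2-lipid A, the purified lipid anchor of E. coli lipopolysaccharide, and the treatment field of the labels calls it LPS. By the study's methods the mice were males of 8 to 12 weeks with a BALB/cJ mother and a C57BL/6J father, so allele and parent of origin cannot be told apart. The labels do not say that each library came from its own mouse, so p-values measure only the spread between libraries. Parental BALB/cJ and C57BL/6J BMDMs under the same 2 conditions (2 libraries each) and CB6F1/J Kupffer cells, with 4 control libraries and 5 libraries after an injection of LPS (0.1 mg/kg, 2 h), served for comparison.

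Macrophages sense lipid A through CD14, which hands it to the TLR4 and MD-2 receptor. The receptor then signals through MyD88 to NF-kB and AP-1, which induce cytokines and chemokines within hours, and through TRIF to IRF3, which induces interferon and interferon-stimulated genes. In a hybrid cell both alleles of a gene lie in one nucleus and meet the same signals and transcription factors, so a comparison of alleles asks whether the response depends on the sequence near the gene itself.

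The 4 libraries held 8.23 to 13.08 M variant-spanning reads over both alleles, and a median of 386 reads per included gene and library. All 7 macrophage markers, among them Adgre1, Csf1r and Cd68, were above 1 TPM, with a summed level of 23864 to 32727 TPM. T cell, B cell, mast cell and erythroid markers stayed below 1 TPM. Of 4 fibroblast or stromal markers, Col1a1 and Col1a2 were above 1 TPM, with a sum over the list of 3.30 to 3.96 TPM with PBS and 4.02 to 4.53 TPM with KLA. Of 3 endothelial markers, Cdh5 and Kdr were above 1 TPM in at least 1 library, with a sum of 4.92 to 4.97 TPM with PBS and 2.64 to 5.43 TPM with KLA. Neutrophil markers summed to 76.4 to 118 TPM with PBS and 62.0 to 124 TPM with KLA, mainly S100a8 and S100a9, and Ly6g was below 1 TPM. Of 4 dendritic cell markers, Zbtb46 and Xcr1 were higher with KLA (sum over the list 0.318 to 0.396 TPM with PBS and 2.48 to 2.89 TPM with KLA), while Flt3 and Siglech stayed below 0.1 TPM; the part of these cell types in the results was not tested.

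The X chromosome gave a check of the allele assignment, since males of this cross carry only a BALB/cJ X. Over 98 X-linked genes with at least 10 reads, C57BL/6J reads still made up 24.1 to 24.8% of the reads per library. The median X-linked gene had a C57BL/6J share of 18.3 to 19.5%. On autosomes, 460 of the genes (8.52%) lay within 1 percentage point of an even 50% in all 4 libraries, and 78 (1.45%) had the same reads for both alleles. How reads came to be assigned to an allele that the cells do not carry was not tested, nor how far such reads enter the shares of autosomal genes. The plot of C57BL/6J shares sets the X-linked genes beside the autosomal ones.

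**Figure D1:**
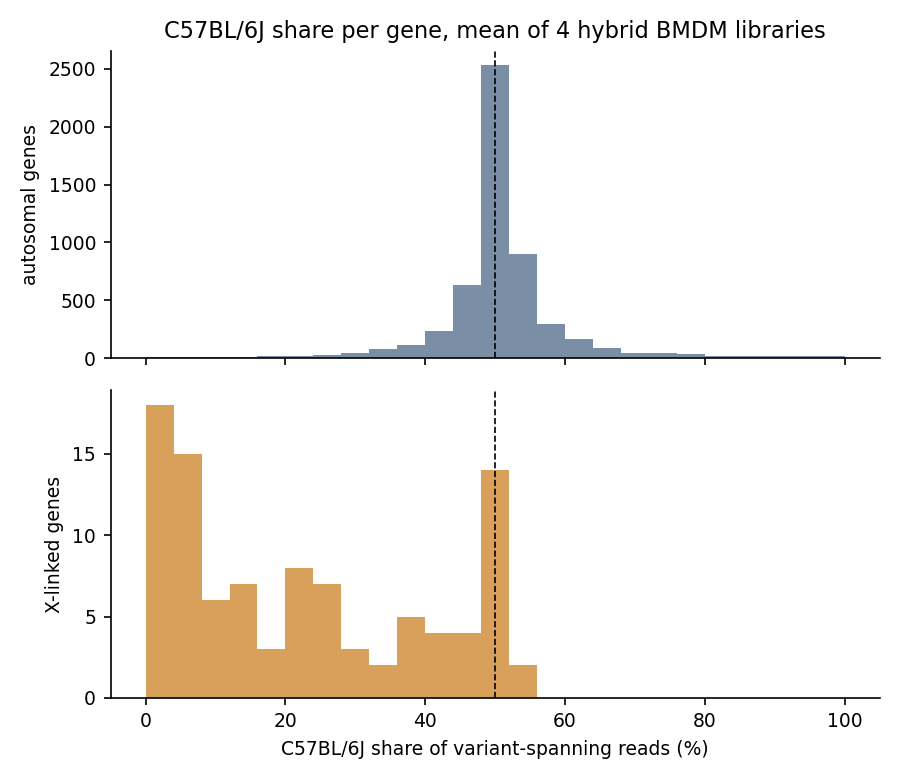
Histograms of the C57BL/6J share of variant-spanning reads (x axis, %, mean of the 4 hybrid BMDM libraries) for 5397 autosomal genes (top, number of genes) and 98 X-linked genes (bottom). Autosomal genes centre on the dashed line at 50%, while X-linked genes, whose C57BL/6J allele is not carried by these males, spread from near 0 to just above 50%.

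With both alleles summed, KLA induced 466 of the 5397 genes (8.63%) and repressed 404 (7.49%) at an adjusted p under 0.05 and a log2 change beyond 1 in either direction (edgeR). In bulk samples, fewer cells of a type and less RNA per cell cannot be told apart. Allele differences were common in either condition: 1221 genes (22.6%) differed between alleles with PBS and 1023 (19%) with KLA. Fewer genes were called for a difference between alleles in the response itself, and how common such differences are was not tested.

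By edgeR's quasi-likelihood test, 2 of 5397 genes (0.0371%) had an allele by KLA interaction at an adjusted p under 0.05, and 420 (7.78%) had an unadjusted p under 0.05. By DESeq2, fitted to the same counts, 42 genes (0.778%) had an adjusted p under 0.05 and 138 (2.56%) an unadjusted p under 0.05. DESeq2 adjusted only over genes that its own filter on mean reads kept, which is less strict than adjusting over all 5397. Some of its calls may thus not hold over all 5397 genes. The 42 genes include both edgeR calls, and the highest unadjusted edgeR p among the 42 was 0.0147. Their adjusted edgeR p ran from 0.0222 to 0.402, and 10 of them were under 0.1. The BALB/cJ share was higher with KLA in 23 of the 42 and lower in 19. These 42 are described here as DESeq2's calls, and the choice to name those that edgeR did not call was made after their values were seen. Standard errors and interaction values are from edgeR. In each of the 42 genes the edgeR standard error was smaller than that of DESeq2. For Dtx4 it was 0.024 beside 0.095, and for Mapkbp1 0.028 beside 0.132. The edgeR fit left only 2 residual degrees of freedom, so its standard errors may overstate the precision.

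The edgeR calls were Dtx4 and Mapkbp1, which moved in opposite directions. Dtx4 (chr19:12466329-12502179, mm10) encodes an E3 ubiquitin ligase of the Deltex family. The BALB/cJ allele gave 48.5% and 49.3% of Dtx4 reads in the PBS libraries and 64.9% and 64.6% in the KLA libraries. The alleles were thus nearly even at rest and apart with KLA, by more than the largest 95% Wilson half-width of 1.39 points. The interaction was 0.94 ± 0.02 (SE) on the log2 scale (adjusted p = 0.0222 by edgeR and 8.27e-20 by DESeq2). The BALB/cJ allele rose by a log2 of 1.42 and the C57BL/6J allele by 0.47.

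Mapkbp1 (chr2:119972390-120027403) encodes a MAP kinase-binding protein that acts as a scaffold for JNK. Its BALB/cJ share was 48.6% and 48.0% with PBS and 30.1% in both KLA libraries. Here it was the C57BL/6J allele that responded more, by a log2 of 2.16 against 1.05 for BALB/cJ. The interaction was -1.11 ± 0.03 (adjusted p = 0.0222 by edgeR and 3.18e-14 by DESeq2). When any 1 of the 4 libraries was left out, PBS replicate 1, PBS replicate 2, KLA replicate 1 or KLA replicate 2, edgeR called 0 genes, with adjusted p of 0.146 to 0.694 for this pair. DESeq2 still called both in all of these fits. Intervals cover counting error only, and reads without molecular identifiers are not independent molecules.

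In all 42 genes the shares of the 2 PBS libraries did not overlap those of the 2 KLA libraries, which held for 2141 of all genes tested (39.7%). The share moved by 4.95 to 33.2 points, with a median of 10.9 points, while the 2 libraries of a condition differed by a median of 1.00 point with PBS and 0.978 points with KLA. The 42 genes had between 203 and 107200 reads per library. Their median absolute interaction was 0.67 on the log2 scale, beside 0.10 over all 5397 genes and 0.07 over the 3388 genes at least as deep as the shallowest of them. Since the 42 were chosen by a test of this same interaction, their larger values and separate shares follow from that choice. The plot of allele shares by library shows every value.

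**Figure D2:**
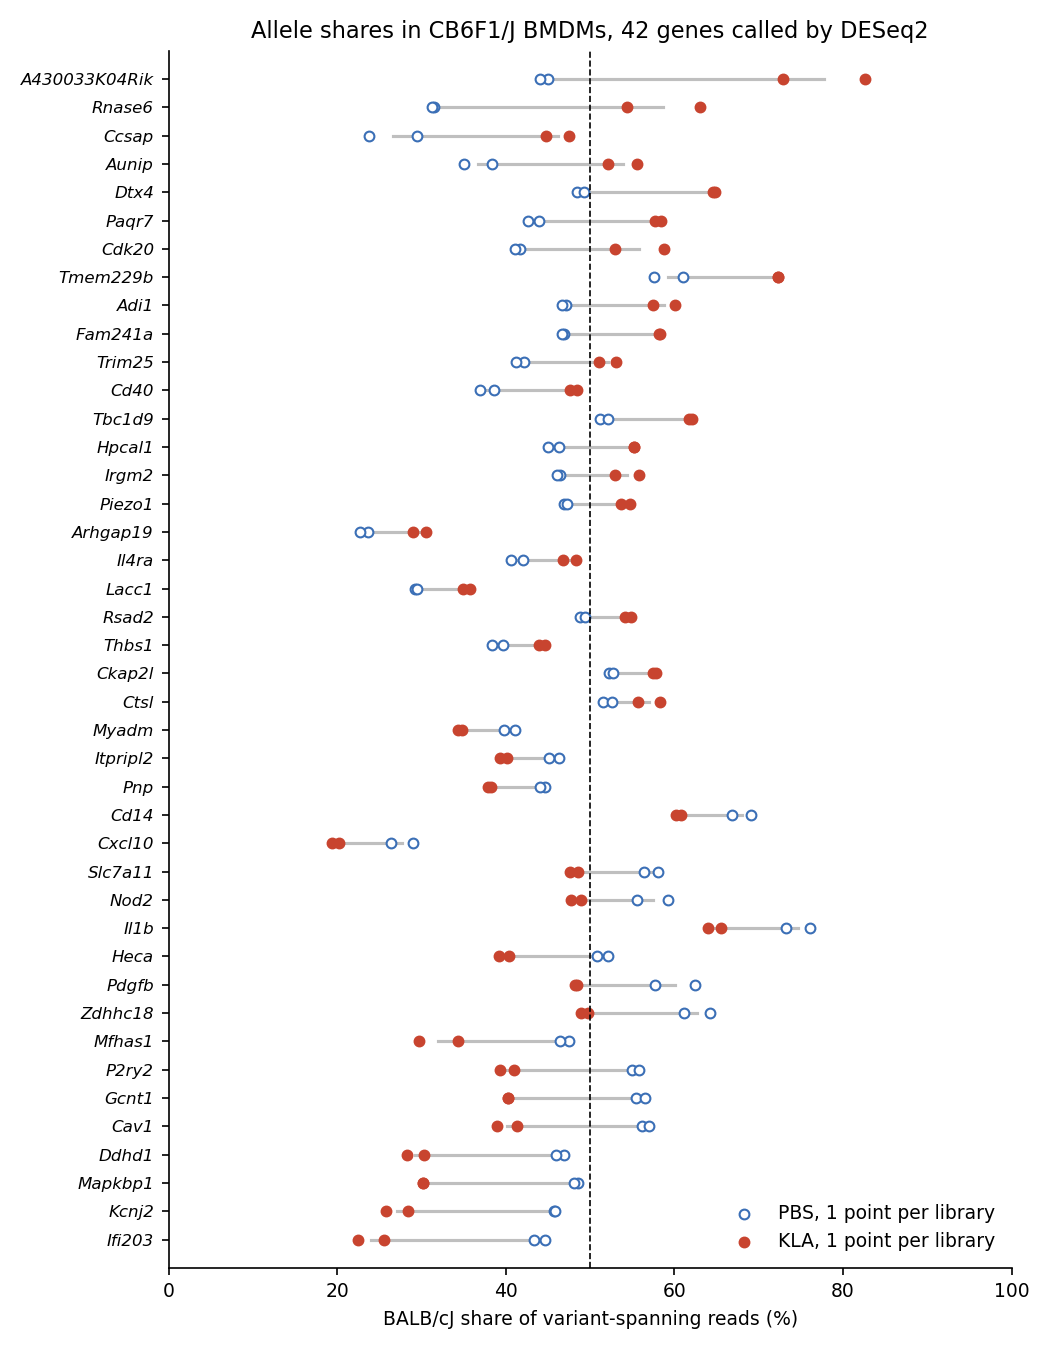
BALB/cJ share of variant-spanning reads (x axis, %) in CB6F1/J BMDMs for the 42 genes that DESeq2 called, ordered by the change of the share; open points are the 2 PBS libraries, filled points the 2 KLA libraries, grey bars join the means and the dashed line marks 50%. No gene has overlapping PBS and KLA points, and the shares move toward BALB/cJ in the 23 genes at the top and toward C57BL/6J in the 19 at the bottom.

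In 26 of the 42 genes the allele difference was larger with KLA than with PBS, and in 15 it was smaller. In 21 of the 42 the fitted allele difference had opposite signs with PBS and with KLA, as in Gcnt1 (0.38 and -0.53), Paqr7 (-0.36 and 0.50) and Trim25 (-0.46 and 0.15). In others of the 21 the sign with KLA rests on a value close to 0, as in Zdhhc18 (0.76 and -0.004 ± 0.05) and Pdgfb (0.61 and -0.06 ± 0.06). Of the 21, only Rnase6 had both differences past 0.5 on the log2 scale (-1.11 and 0.58), and it is counted in neither the 26 nor the 15. The resting share lay between 45 and 55% in 16 genes, and the share with KLA lay in that range in 12. None of these counts was made over all genes tested, so they have no background. Of the 42, KLA induced 19 (45.2%, beside 8.63% of all genes tested) and repressed 5 (11.9%, beside 7.49%), and 18 did not pass that test. The BALB/cJ share was lower with KLA in 13 of the 19 induced genes, and higher in 14 of the 18 genes without a called response. Over all 5397 genes the interaction was above 0 in 2865. Its direction was not counted within all induced genes, so these splits have no background and no link to induction was tested. In 6 genes the responses of the alleles, taken from mean normalized reads without a standard error, had opposite signs. In Rnase6 they were 0.37 for BALB/cJ and -1.31 for C57BL/6J. In the others the C57BL/6J response was near 0, between -0.14 (Tmem229b) and 0.11 (Mfhas1). Their BALB/cJ responses ran from -0.81 (Mfhas1) to 0.96 (Aunip).

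**Figure D3:**
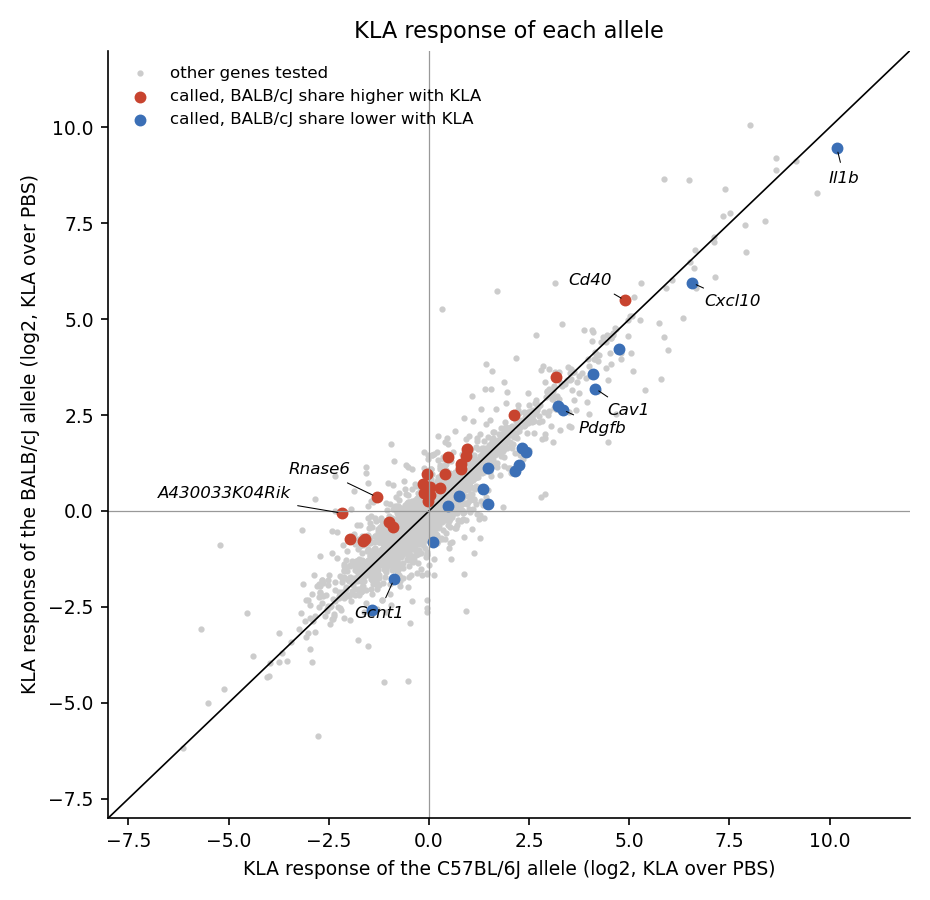
KLA response of the BALB/cJ allele (y axis) against that of the C57BL/6J allele (x axis), both as log2 of KLA over PBS, for all 5397 genes (grey; 1 gene lies beyond the axes) and the 42 genes called by DESeq2 (coloured by direction). Il1b and Cxcl10 respond strongly on both alleles and lie slightly below the diagonal, while A430033K04Rik and Rnase6 lie above it with a fall mainly of the C57BL/6J allele.

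Among genes that sense or relay the TLR4 signal, 1 of 17 was called, the receptor gene Cd14 (the median interaction of the list was 0.02, beside 0.01 over all genes). For this list and those below, the background is calls in 0.778% of all genes and in 19 of the 466 induced genes. No list was tested against these shares, so each call is described as a single gene and not as a result about its list. Cd14 encodes the co-receptor that delivers lipid A to TLR4. Its BALB/cJ share was 69.1% and 66.9% with PBS and 60.7% and 60.2% with KLA. The BALB/cJ allele was the higher one throughout, and its excess narrowed with KLA. Cd14 rose with KLA by a log2 of 2.91 ± 0.17 over both alleles, and its interaction was -0.47 ± 0.05 (adjusted p = 1.49e-05 by DESeq2, 0.166 by edgeR). Of 12 pattern receptor genes, 1 was called, Nod2, the cytosolic sensor of muramyl dipeptide. The Nod2 share was 55.6% and 59.3% with PBS and 47.7% and 48.9% with KLA, an interaction of -0.54 ± 0.09 (adjusted p = 0.0121 by DESeq2, 0.257 by edgeR).

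Of 11 cytokine genes, Il1b alone was called. Il1b encodes interleukin-1 beta, a fever-inducing cytokine that is stored as a precursor and cut by the inflammasome. The BALB/cJ allele gave 150.5 of 205.5 and 517 of 679.5 reads in the PBS libraries, a share of 73.2% and 76.1%. With KLA the shares were 65.5% and 64.0%, from 199043 and 228871 reads. The gap of about 10 points was wider than the largest Wilson half-width of 6.03 points, which came from the PBS libraries. Expression of Il1b rose by a log2 of 9.66 and its interaction was -0.73 ± 0.11 (adjusted p = 3.52e-05 by DESeq2, 0.257 by edgeR). Il1b overlaps the antisense transcript Il1bos, and no source used here says whether strand was used when reads were counted.

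Tnf, the gene of tumour necrosis factor, had a nearly even share in both conditions. Its BALB/cJ share was 52.1% and 50.4% with PBS and 49.7% and 50.1% with KLA, at 61050 reads per library. The interaction was -0.07 ± 0.04 (adjusted p = 0.932 by edgeR), on a KLA response of 7.06. In the parental strains, by contrast, Tnf had a strain by KLA interaction of 1.07 ± 0.17 (adjusted p = 0.00226 by edgeR). How far reads assigned to the wrong allele hold the Tnf share of the hybrid near 50% was not tested.

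Among 13 chemokine genes, Cxcl10 was called. CXCL10 is an interferon-inducible chemokine that draws T cells through CXCR3. Its BALB/cJ share was 26.4% and 29.0% with PBS and 19.3% and 20.2% with KLA. The C57BL/6J allele was the higher one in each library, and more so with KLA. Over both alleles Cxcl10 rose by a log2 of 6.43, and the interaction was -0.65 ± 0.09 (adjusted p = 6.49e-07 by DESeq2, 0.205 by edgeR). The median interaction of the chemokine list was -0.31.

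Of 35 interferon-stimulated genes, Ifi203, Irgm2 and Rsad2 were called, beside 0.778% of all genes and 19 of the 466 induced genes. The BALB/cJ share was lower with KLA in 1 and higher in 2, and the median interaction of the list was 0.01. Ifi203 belongs to the interferon-inducible p200 family, whose members are close copies in 1 cluster, so its reads may be uncertain. The BALB/cJ share of Ifi203 was 44.7% and 43.4% with PBS and 22.4% and 25.6% with KLA. Its C57BL/6J allele rose by a log2 of 1.46 and its BALB/cJ allele by 0.19, and the interaction was -1.28 ± 0.10 (adjusted p = 3.04e-18 by DESeq2, 0.105 by edgeR).

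Rsad2 encodes viperin, an antiviral enzyme. The BALB/cJ share of Rsad2 was 48.8% and 49.4% with PBS and 54.8% and 54.2% with KLA. The KLA libraries differed in its amount, with 16758 and 50142 reads of the BALB/cJ allele and 13798 and 42447 of the other, while the shares had an SD of 0.486 points. The interaction of Rsad2 was 0.32 ± 0.02 (adjusted p = 0.000636 by DESeq2, 0.1003 by edgeR). Irgm2, an immunity-related GTPase, went from 46.5% and 46.1% to 52.9% and 55.8%, an interaction of 0.49 ± 0.07 (adjusted p = 0.00314 by DESeq2, 0.218 by edgeR). Outside the list, Trim25, the ubiquitin ligase that activates the RNA sensor RIG-I, went from 42.1% and 41.2% to 53.1% and 51.1%. Its interaction was 0.61 ± 0.05 (adjusted p = 6.12e-11 by DESeq2, 0.105 by edgeR), and its total level did not pass the response test (log2 0.30).

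Cd40, the co-stimulatory receptor through which T cells activate macrophages, was the 1 call among 21 genes of antigen presentation. Its BALB/cJ share was 36.9% and 38.6% with PBS and 47.6% and 48.4% with KLA, so that the alleles drew near to even as the gene rose by a log2 of 5.15. The interaction was 0.60 ± 0.06 (adjusted p = 0.000104 by DESeq2, 0.154 by edgeR). H2-Ab1, a class II chain, had shares of 45.4% and 47.9% with PBS and 38.5% and 42.5% with KLA, and its interaction of -0.30 ± 0.12 did not pass either test.

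In the list of macrophage metabolism and transport, 1 of 17 genes was called. Slc7a11, the cystine importer subunit xCT, went from a BALB/cJ share of 57.99% and 56.42% to 47.7% and 48.6%, an interaction of -0.50 ± 0.06 (adjusted p = 0.00314 by DESeq2, 0.164 by edgeR). Slc7a2, an arginine importer, had shares of 66.9% and 61.2% with PBS and 56.9% and 57.9% with KLA, and its interaction of -0.37 ± 0.12 was not called (adjusted p = 0.414 by DESeq2). Of 15 matrix and protease genes, Thbs1 (thrombospondin 1) and Ctsl (the lysosomal protease cathepsin L) were called, with interactions of 0.31 ± 0.04 and 0.29 ± 0.07.

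No member was called by edgeR or DESeq2 among 12 NF-kB subunits and inhibitors, 9 immediate-early genes, 9 feedback inhibitors, 14 imprinted genes and 8 housekeeping genes. With calls in 0.778% of all genes and in 19 of the 466 induced genes, a count of 0 in lists of this size is near the background. KLA induced 10 of the 12 NF-kB genes and 8 of the 9 feedback inhibitors. Tnfaip3, which encodes the deubiquitinase A20, had an interaction of -0.42 ± 0.09 (adjusted p = 0.363 by edgeR). The housekeeping list had the smallest median absolute interaction of the 14 lists, 0.01, beside 0.10 over all genes.

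Several of the largest differences lay outside these lists. Gcnt1, the enzyme that branches core 2 O-glycans, went from 55.5% and 56.5% BALB/cJ to 40.3% in both KLA libraries. KLA repressed both alleles, BALB/cJ by a log2 of -1.78 and C57BL/6J by -0.87, and the interaction was -0.91 ± 0.03 (adjusted p = 3.71e-16 by DESeq2, 0.0514 by edgeR). Ddhd1, a phospholipase, went from 46.9% and 46.0% to 30.3% and 28.2%, an interaction of -1.06 ± 0.07. Kcnj2, the potassium channel Kir2.1, fell on both alleles and more on BALB/cJ, from 45.7% and 45.9% to 25.8% and 28.4%. Pdgfb, the B chain of platelet-derived growth factor, went from 62.5% and 57.6% to 48.2% and 48.4% while rising by a log2 of 2.96. Zdhhc18, a palmitoyltransferase, likewise reached 49.0% and 49.8% from 64.2% and 61.1%.

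In the other direction, Tmem229b, a transmembrane protein of little known function, went from 57.6% and 61.0% to 72.3% in both KLA libraries. Tbc1d9, whose protein carries a Rab GTPase-activating domain, went from 51.2% and 52.1% to 61.7% and 62.1%. Paqr7, a membrane progestin receptor, went from 44.0% and 42.7% to 57.7% and 58.4%. Both of the largest interactions came from shallow genes: A430033K04Rik (2.14 ± 0.25) had 103 and 103.5 reads in the KLA libraries, and Rnase6 (1.69 ± 0.18) had 138 and 194.5. The shares of Rnase6, a secreted ribonuclease, were 31.4% and 31.2% with PBS and 54.3% and 63.0% with KLA.

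The 42 genes lay on 16 chromosomes, with at most 5 on 1. Of them, 8 (19%) had another within 500 kb, beside 300 of all 5397 genes (5.56%). The start sites of Aunip and Paqr7 lay 14238 bp apart on chromosome 4 and both shares were higher with KLA. Those of Cdk20 and Ctsl, 61547 bp apart on chromosome 13, also moved the same way. By contrast Il1b and its neighbour Ckap2l, 73936 bp apart on chromosome 2, moved in opposite directions, as did Pnp and Rnase6, 179605 bp apart on chromosome 14. Pnp has a close copy beside it, so its reads are uncertain.

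RefSeq promoters of assembly GRCm38.p6, 250 bases before to 50 after the start, were matched for 35 of the 42 genes and searched on both strands for motifs of the transcription factors that act after TLR4. The interferon response element, searched as GAAA followed by any 2 bases and GAAA again, was found in 5 of the 35 (14.3%), beside 3.44% of all 32851 promoters, 4.05% of 4243 included genes and 5.40% of 352 induced genes. The 30 bases around these matches are shown because 4 of the 5 genes belong to, or are regulated with, the interferon-stimulated group; capitals mark the match, in the orientation of the gene.
Ifi203: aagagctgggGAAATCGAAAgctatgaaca
Cxcl10: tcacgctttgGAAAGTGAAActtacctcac
Irgm2: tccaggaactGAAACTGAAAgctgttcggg
Rsad2: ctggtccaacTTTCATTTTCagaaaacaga
Rnase6: aaatctaaggTTTCTCTTTCataggcttaa

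These windows lie at chr1:173942508-173942537 (minus strand), chr5:92349083-92349112 (minus), chr11:58214903-58214932 (plus), chr12:26456553-26456582 (minus) and chr14:51129007-51129036 (plus). In Rsad2 and Rnase6 the match is on the opposite strand. The BALB/cJ share was lower with KLA in Ifi203 and Cxcl10 and higher in the other three. The reference is C57BL/6J sequence, and whether BALB/cJ differs in these windows was not tested. The kappa B motif (GGGA or GGGG, any base, then TTTCC) was found in Myadm and Il4ra, which is 5.71%, beside 0.807% of all promoters, 1.15% of included genes and 3.12% of induced genes. The AP-1 motif (TGANTCA) was found in 3 genes (8.57%), beside 7.81% of all promoters, 6.58% of included genes and 8.81% of induced genes. The CRE (TGACGTCA) was found in 1 gene (2.86%), above the 1.79% of all promoters and below the 3.56% of included genes and 4.55% of induced genes. The STAT motif (TTCCNGGAA) was found in 1 gene (2.86%), beside 1.15%, 1.70% and 2.27% in the same order. In Irgm2 the STAT match begins at -75 from the start site and the interferon element at -64, so they lie close together without overlap. No test was made of these shares.

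The parental strains gave libraries that the allele test had not used. There, a strain by KLA interaction was called by edgeR in 372 of all 13345 genes tested (2.79%) and in 231 of 5378 included genes (4.3%), and in 180 (3.35%) it was called with the same sign as between the alleles. Of the 42 genes, 25 (59.5%) were called in the parental BMDMs, all 25 with the same sign. The sign was shared by 40 of the 42 (95.2%), beside 55.3% of all included genes, and the exceptions were Cd40 and Cav1. Across the 42 genes the 2 interactions had a Pearson r of 0.89, beside 0.23 over all 5378 genes. The 42 were chosen by their interaction and had a median of 5935 reads per library, beside 386 over all included genes. No background of matched depth or size of interaction was used, here or for Kupffer cells. In 30 of the 42 the parental value was the larger one, with a median absolute value of 0.72 beside 0.67 between the alleles.

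Dtx4 went from 30.8 ± 2.20 to 72.3 ± 4.53 TPM (SD, n = 2) with KLA in BALB/cJ and from 39.6 ± 0.81 to 32.8 ± 2.90 TPM in C57BL/6J, a strain by KLA interaction of 1.53 ± 0.14. Ifi203 went from 125 ± 15.6 to 64.1 ± 15.5 TPM in BALB/cJ and from 54.1 ± 2.30 to 115 ± 1.73 TPM in C57BL/6J, an interaction of -2.03 ± 0.21. Mapkbp1 reached 8.36 ± 2.09 TPM in BALB/cJ and 20.3 ± 0.65 TPM in C57BL/6J from nearly equal resting levels (6.19 and 6.12 TPM), an interaction of -1.27 ± 0.21. For these genes the strain with the larger response was the one whose allele had the larger response in the hybrid. Slc7a11 differed more between strains (-1.91 ± 0.24) than between alleles, as did Cdk20 (2.08 ± 0.18), a cell cycle-related kinase. Il1b (-0.13 ± 0.65) and Rsad2 (0.27 ± 0.63) did not pass the parental test, where the standard errors were wide. Cxcl10 had a parental value of -1.23 ± 0.66.

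**Figure D4:**
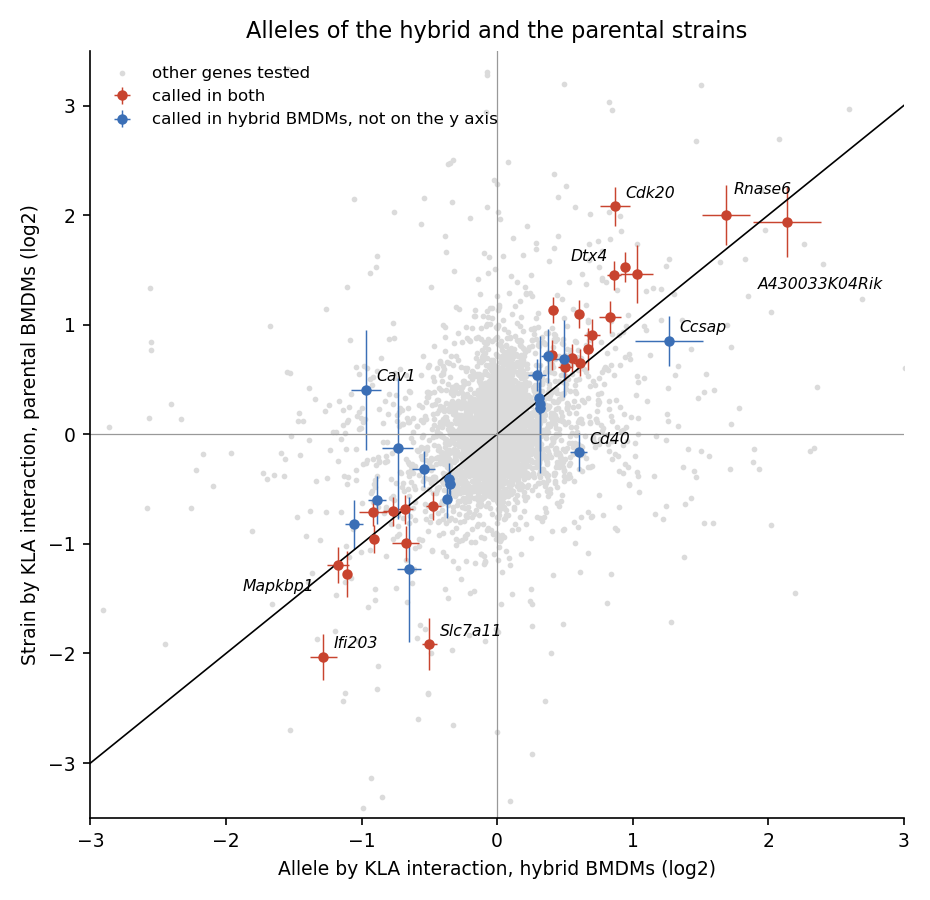
Strain by KLA interaction of parental BMDMs (y axis, log2) against the allele by KLA interaction of hybrid BMDMs (x axis, log2); coloured points are the 42 genes called by DESeq2 in the hybrid, with bars of 1 SE, grey points the other genes tested (29 lie beyond the axes), and the line marks equality. All 25 genes called in both lie in the lower left or upper right, and Cd40 and Cav1 lie in the other quadrants.

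Kupffer cells of the same hybrid were tested after LPS in the animal. An allele by LPS interaction was called in 211 of 5327 genes with enough Kupffer reads (3.96%), in 209 of 4884 genes tested in both (4.28%), and in 139 (2.85%) with the same sign as in BMDMs. Of 40 of the 42 genes with enough Kupffer reads, 17 were called, 14 of the 40 (35.0%) with the same sign and 3 with the opposite one. The sign was shared by 30 of the 40 (75%), beside 53.4% of all genes tested in both. The agent, its dose and its route differ between KLA in culture and LPS in the animal. With the same sign in the parental BMDMs as well, 8 genes were called in all 3 sets of libraries. They were Ifi203, Mapkbp1, Trim25, Tbc1d9, Tmem229b, Cd14, Mfhas1 and Fam241a. Their calls are from DESeq2 in hybrid BMDMs and from edgeR in parental BMDMs and Kupffer cells. In hybrid BMDMs edgeR called only Mapkbp1 of the 8. No such count was made over all genes tested, so the 8 have no background.

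Mapkbp1 was nearly the same in both cell types: in Kupffer cells its BALB/cJ share was 52.7% ± 1.23 (SD, n = 4) in controls and 32.6% ± 1.09 (SD, n = 5) with LPS, an interaction of -1.204 ± 0.051. Tmem229b went from 63.2% ± 1.84 (SD) to 82.5% ± 1.76 there, and its interaction of 1.45 ± 0.10 compares with 0.83 ± 0.08 in BMDMs. Cd40, whose parental value of -0.16 ± 0.17 was not called, was called in Kupffer cells with the BMDM direction (35.7% in controls, 48.3% with LPS, 0.72 ± 0.09). In a fit of both cell types, added after the data were seen, the interaction differed between them in 62 of 4884 genes (1.27%) and in 13 of the 40. One of these was Ckap2l, a mitotic spindle protein, whose Kupffer share was 53.6% in controls and 15.0% with LPS against 52.2 to 57.8% over the BMDM libraries. The 40 were chosen by their BMDM interaction, which enters the difference between cell types. Their larger share of calls, 13 of 40 beside 1.27%, may follow in part from that choice.

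**Figure D5:**
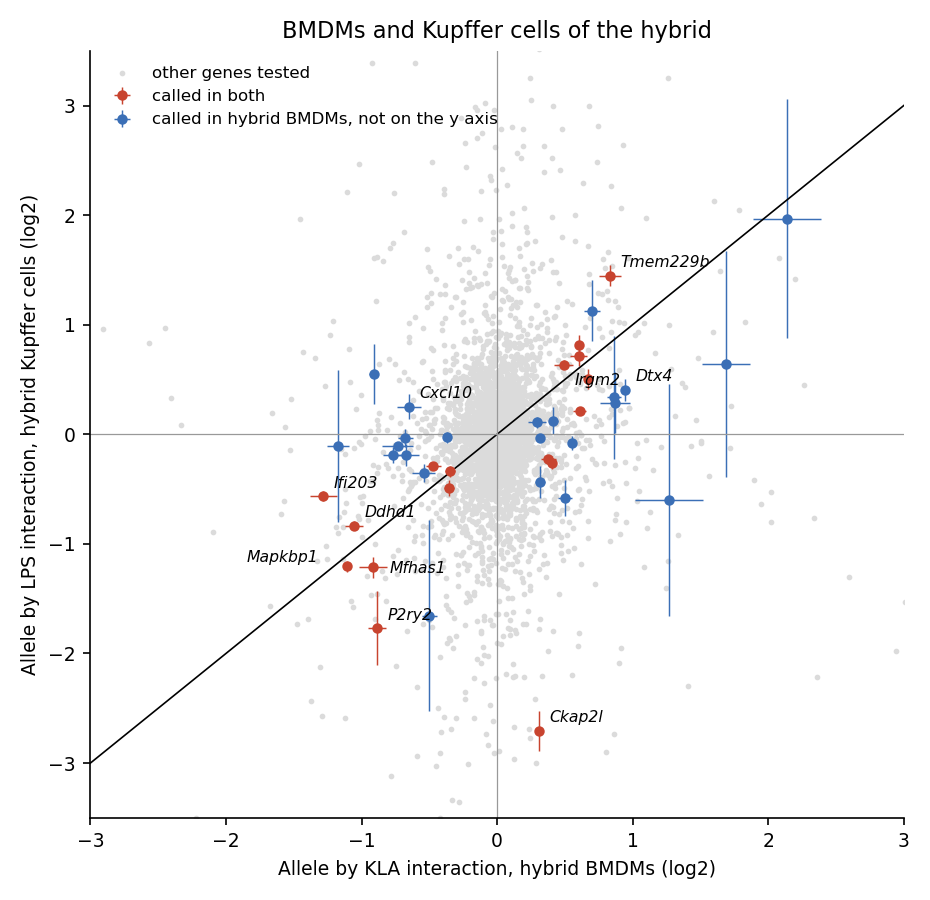
Allele by LPS interaction of hybrid Kupffer cells (y axis, log2) against the allele by KLA interaction of hybrid BMDMs (x axis, log2) for 40 of the genes called by DESeq2 in BMDMs (coloured, bars of 1 SE) and the other genes tested (grey; 53 lie beyond the axes); the line marks equality. Mapkbp1, Mfhas1 and Tmem229b lie on the same side of 0 on both axes, while Ckap2l is at -2.71 in Kupffer cells and 0.31 in BMDMs.

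Apobec3, a cytidine deaminase that restricts retroviruses, had a large allele by LPS interaction in Kupffer cells (-2.35 ± 0.09) but shares of 27.7%, 27.1%, 24.5% and 23.9% in the BMDM libraries, an interaction of -0.24 ± 0.03 that neither tool called. Mtus1, a microtubule-associated protein, was at 2.62 ± 0.09 in Kupffer cells and -0.01 ± 0.18 in BMDMs, a value whose sign changed under several alternatives. The BMDM interactions of Med21, a Mediator subunit (0.31 ± 0.11), and Cxcr4, a chemokine receptor (-0.37 ± 0.17), were not called by either tool. Med21 was called in hybrid Kupffer cells (0.88 ± 0.16, adjusted p = 0.0197 by edgeR). Cxcr4 had a strain by KLA interaction of the opposite sign in parental BMDMs (1.66 ± 0.16, adjusted p = 3.29e-05 by edgeR). Plac8 had no variant-spanning reads and could not be compared between alleles.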

How the data were processed

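The authors mapped poly(A), dUTP-marked RNA-seq libraries with STAR to mm10 and to a BALB/cJ genome built from its variants, kept perfectly matching reads, and counted reads over exons with HOMER. Versions are not given in the sources used here. The deposited expected counts of variant-spanning reads per allele come in steps of 0.5 and were rounded. The deposited TPM values, normalized by the authors, were used for levels and 1 filter. Of 20 tables, 8 were used.

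Both alleles of 4 CB6F1/J BMDM libraries were fitted with a library term, an allele term and an allele by treatment term in edgeR 4.0.16 (R 4.3.3; quasi-likelihood, TMM over 8 columns) and, as an alternative, in DESeq2 1.42.0. Benjamini-Hochberg adjusted p-values of edgeR cover all 5397 genes, with a threshold of 0.05. Those of DESeq2 cover only the genes kept by its own filter on mean reads, at the same threshold. An adjusted p that DESeq2 left as NA stayed NA. Parental BMDMs and hybrid Kupffer cells were fitted likewise. Standard errors come from the fold change and F statistic. Alternatives were another scaling, no filter, at least 50 reads, TPM above 8, no library term, a replicate block, a fold limit, leaving out each library and, added after the data were seen, limma 3.58.1 and edgeR's newer method. Scripts were tested on simulated data. Genes, lists and members were chosen with earlier results of these data known. Named genes were called genes with the largest change or of a list, genes of the study, and DESeq2's calls. Symbols were placed on mm10 for all but 72 genes.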

Additional observations from a re-analysis of the deposited data

Results flagged for a closer look

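In a fit over both cell types of the hybrid (edgeR, added after the data were seen), 13 of the 40 genes differed between the BMDM and the Kupffer interaction, given here as BMDM minus Kupffer on the log2 scale. The 40 were chosen by their BMDM interaction, which enters this difference, so the count of 13 may follow in part from that choice. The difference was 2.97 for Ckap2l (adjusted p = 8.15e-05), with interactions of 0.31 and -2.71. It was 1.05 for Arhgap19, 0.63 for Lacc1, 0.60 for Hpcal1, 0.57 for Il4ra, 0.36 for Trim25 and 0.32 for Rsad2. It was -0.94 for Cxcl10, -0.76 for Ifi203, -0.68 for Heca, -0.65 for Il1b, -0.61 for Zdhhc18 and -0.38 for Pnp. Trim25 and Ifi203 had the same sign in both cell types, called by DESeq2 in BMDMs (adjusted p = 0.105 by edgeR for each) and by edgeR in Kupffer cells.

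Of 78 groups of Kupffer libraries, 2 had a library far from the others, where chance gives about 1 in 20. Control replicate 3 had a BALB/cJ share of 44.8% for Fam241a, beside 49.8 to 50.4% in the other controls, from 337 reads. LPS replicate 5 had a share of 58.2% for Rsad2, beside 56.71 to 57.02% in the other LPS libraries.

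On X-linked genes, which the allele test leaves out, reads of the C57BL/6J allele that these males do not carry made up 24.1% and 24.2% in the PBS libraries and 24.8% in both KLA libraries.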

How the results depend on the processing

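The allele by KLA interaction gave 2 calls by edgeR, 42 by DESeq2, and 0 with no library term (157 genes at an unadjusted p under 0.05) or without any 1 library (range 0 to 0; 276 to 558 unadjusted). A fold limit of 1 left 1 call by edgeR and 8 by DESeq2. DESeq2 gave 15 to 22 calls without 1 library and 11 with no library term. Of the 42 genes, 10 were called without any 1 library (Dtx4, Ifi203, Gcnt1, Mapkbp1, Trim25, Zdhhc18, Pdgfb, Cxcl10, Tbc1d9 and Tmem229b) and 19 in none of those 4 fits. With 1 library left in a condition, that library is assumed to vary like the others. Parental calls were 372, or 767 with no filter and 165 to 434 without 1 library (211 without BALB/cJ PBS replicate 1, and 203, 215 and 165 without C57BL/6J PBS replicate 1, KLA replicate 1 and KLA replicate 2). Kupffer calls were 211, or 133 to 237 without 1 library (133 to 140 without any 1 of the Control replicates 1 to 4). The KLA response kept within 1.5 times its 870 calls under every alternative run. Another scaling moved the median interaction over all genes by under 0.01.

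Labels share replicate numbers, yet same-numbered libraries did not deviate together (r = 0.025 for allele ratios, 0.122 for summed reads), so the replicate block only shares a number. With the replicate block edgeR called 0 genes (457 unadjusted), DESeq2 28, of which 27 were among the 42, and the Kupffer test 65.

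The near-zero interaction of Mtus1 (-0.01) changed sign to 0.036 by DESeq2, 0.0078 with no library term, 0.0060 with the replicate block, 0.042 by limma, and ran from -0.18 to 0.23 without 1 library, above 0 without PBS replicate 2 (0.23) or KLA replicate 1 (0.0083). The cause was not tested. The depth of shallow genes limits what could be detected.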
